A study of Mus musculus with 2 samples.

Results

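The metastatic-niche matrix genes described here are Fn1, Postn, Tnc, Lox, Loxl2, Vcan, Thbs1, Spp1 and Timp1, which were taken by symbol as 9 of the 32285 genes in the deposited matrices. All 9 were found in both matrices. The extracellular matrix is the mesh of secreted proteins around cells, and the niche that tumors prepare in distant organs before tumor cells settle there is known for fibronectin deposition, collagen cross-linking and matricellular proteins such as periostin, tenascin C and osteopontin. Structural proteins build the mesh, lysyl oxidases link its fibers, matricellular proteins sit in it and signal to cells through integrins and other receptors, and protease inhibitors slow its breakdown. In the lung, fibroblasts, pericytes, smooth muscle cells and mesothelial cells are the classical matrix producers, and monocytes and macrophages make some of these proteins too.

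The lungs came from female BALB/cJ mice, 12 weeks old, that carried a tumor of 4T1 cells, a mouse triple-negative mammary carcinoma line, for 14 days after inoculation of 100000 cells. From the day after inoculation the mice received intravenous injections every 3 days, either of saline or of nanoparticles (NP) made of the polymer PLG with no drug cargo. Lungs of each treatment were pooled and sequenced as 1 single-cell library, with 4 mice in a pool by the labels and a different number by the study's methods. All mice carried the tumor, so neither library is a tumor-free baseline. With 1 library per treatment there are no replicates, and none of the differences below has a test. Every interval is a 95% interval that covers counting error only. The question addressed is which lung cells held the transcripts of each gene, and how the NP library compared with the saline library over all cells and within a cell class.

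Counts are unique molecular identifiers (UMIs), each of which marks 1 captured transcript molecule. The libraries held 91168129 saline and 90081747 NP UMIs, and 8662 saline and 8333 NP cells had 500 to 5000 detected genes and under 7.5% mitochondrial UMIs. The median was 6474.5 UMIs per saline cell and 6008 per NP cell, and 21 barcodes occurred in both sets of cells. Clusters were formed without the 9 genes and were named "-like" from fixed markers, which gave 21 classes, with between 5 of 9 and all markers of its own list detected in each class. Another 11 clusters stayed unnamed, with 381 saline and 628 NP cells. Levels are in CPM, the UMIs of a gene per 1000000 UMIs of the class in a library. Since CPM of UMIs are not divided by transcript length, levels are compared between classes and libraries, not between genes.

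The 9 genes fell to few producers. Classical monocyte-like cells held most transcripts of Fn1, Vcan and Thbs1, alveolar macrophage-like cells held most of Spp1, pericyte-like cells held most of Postn and fibroblast-like cells held most of Lox. Tnc, Loxl2 and Timp1 were sparse, and their transcripts lay mainly in fibroblast-like, smooth muscle or myofibroblast-like, mesothelial-like and endothelial cells. The class with the largest share was the same in both libraries for the first 6 genes, as the plots of levels and of shares by class show. At least 1 UMI of the 9 genes was present in 91.2% of saline and 84.3% of NP classical monocyte-like cells, against 3.18% and 4.86% of B cell-like cells, which are not known as matrix producers. At least 3 of the 9 genes were detected together in 37.9% of saline and 41.1% of NP fibroblast-like cells and in 32.9% and 32.0% of classical monocyte-like cells. These shares were not thinned, so they do not compare the classes at equal depth. Median depths were 15504 saline and 15938 NP UMIs in classical monocyte-like cells. They were 4729 and 4321 UMIs in fibroblast-like cells and 4341.5 and 4451 UMIs in B cell-like cells. Airway epithelium-like cells had no UMI of any of the 9 genes, but only 23 saline and 3 NP cells were of this class.

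**Figure D1:**
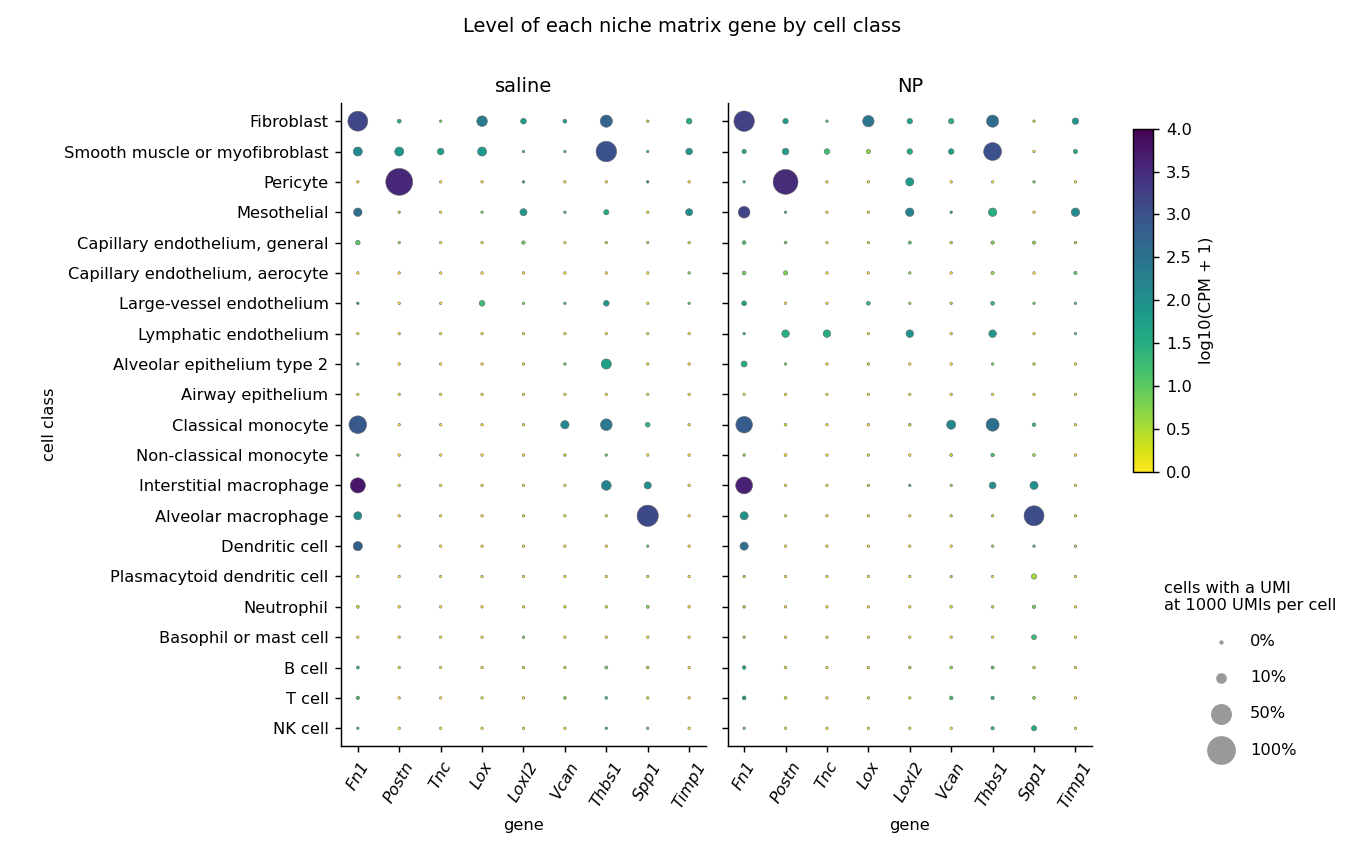
Level of each gene (columns) in each named class (rows) in the saline and NP libraries, with color for log10(CPM + 1) and dot area for the percent of cells with a UMI after each cell was thinned to 1000 UMIs. The darkest Fn1 dots lie in the class named interstitial macrophage-like, at 5659 and 4293 CPM. Most of that Fn1 lay in 3 saline and 8 NP cells with high Prg4, and the other cells of the class had 342 and 407 CPM. Postn stands out in pericyte-like cells and Spp1 in alveolar macrophage-like cells.

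**Figure D2:**
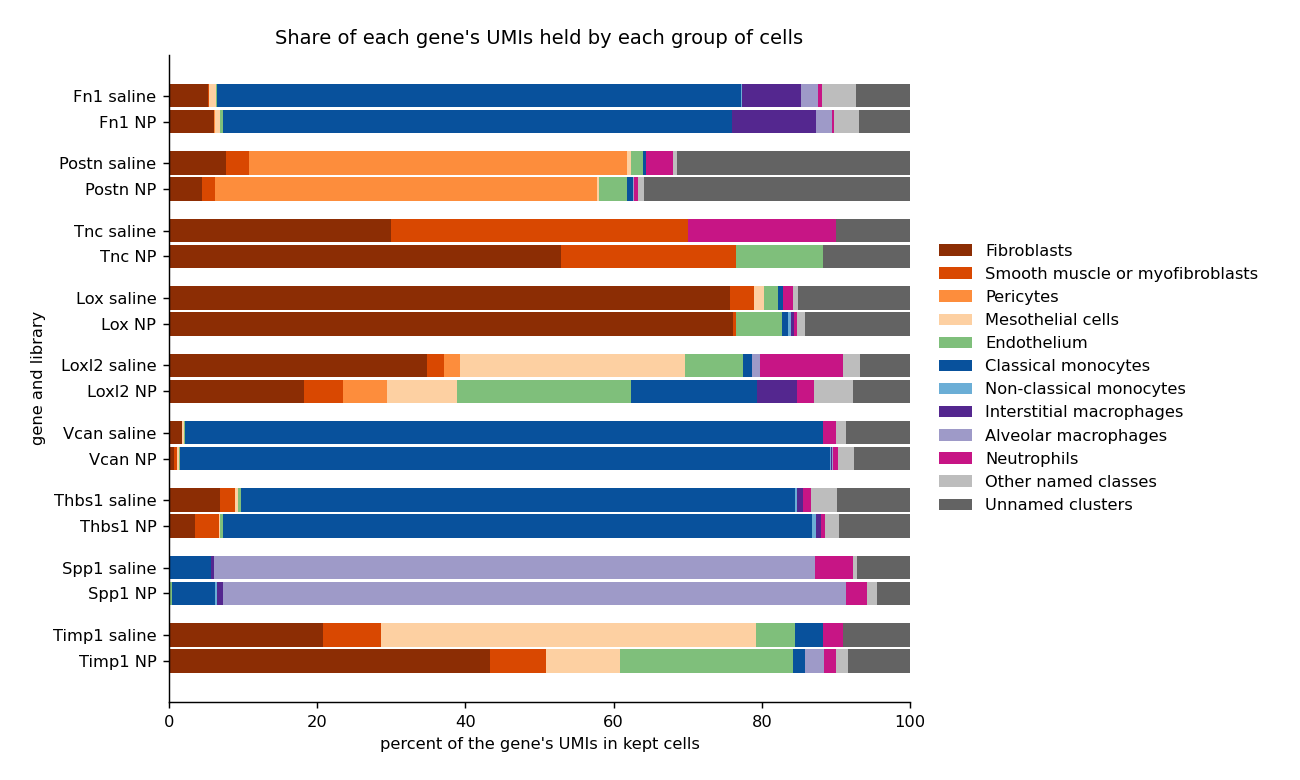
Share of the UMIs of each gene in kept cells, in percent, held by each group of cells in the saline and NP libraries. Classical monocyte-like cells held 70.7% of saline and 68.6% of NP Fn1 UMIs, and the bars of Loxl2 and Timp1 differ most between the libraries, with more endothelium in NP.

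Over all cells, each of the 9 genes had a higher level in the NP library, and the difference shrank or turned when the class mix was held fixed. Neutrophil-like cells numbered 5595 in saline and 3076 in NP, while classical monocyte-like cells numbered 684 and 1137, general capillary endothelium-like cells 268 and 1033, and pericyte-like cells 7 and 35. Postn was at 2.49 CPM in saline (194 UMIs) and 13.2 CPM in NP (959 UMIs), and its NP level over its saline level was 2.41 on the log2 scale (2.19 to 2.64). The ratio of Thbs1 was 1.20 (1.14 to 1.25), from 47.6 to 109 CPM, and that of Loxl2 was 1.04 (0.66 to 1.42), from 1.14 to 2.35 CPM. These 3 of the 9 genes were past 2-fold higher and 0 were past 2-fold lower, where 14.8% of the 15757 genes with at least 20 UMIs were past 2-fold higher and 1.85% past 2-fold lower. The median log2 ratio of all those genes was 0.39, so that most of the transcriptome lay higher in the NP library on this scale. Less the median of genes with at least 200 UMIs, which was 0.37, the ratio of Postn was 2.04 and those of Thbs1 and Loxl2 were 0.82 and 0.67, both below 2-fold. Without the cells of highest doublet score Loxl2 was at 0.65, again below 2-fold.

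The remaining genes were within 2-fold. Fn1 went from 164 to 261 CPM, a log2 ratio of 0.67 (0.63 to 0.70), and Spp1 from 53.7 to 77.6 CPM, a ratio of 0.53 (0.47 to 0.59). Vcan had ratios of 0.84 (0.76 to 0.93), Lox of 0.85 (0.56 to 1.15) and Timp1 of 0.74 (0.32 to 1.18). Only Tnc, with 10 saline and 17 NP UMIs, had an interval that held 0 (0.87, -0.34 to 2.16).

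When each class and unnamed cluster of the NP library was given its saline share of UMIs, the NP level of Postn was 3.00 CPM and its ratio 0.26 (0.02 to 0.51). Within pericyte-like cells its ratio was -0.16 (-0.47 to 0.17). Among those with a higher NP level were fibroblast-like cells (15 and 43 UMIs, 28 of the latter in 1 cell) and an unnamed stromal cluster (0 and 30 UMIs). An unnamed endothelial cluster went the other way (35 and 13 UMIs). For Fn1 the ratio became -0.12 (-0.15 to -0.08) and for Spp1 -0.09 (-0.15 to -0.03), which turned the direction of both. Thbs1 kept a higher NP level at 0.40 (0.35 to 0.46), and so did Loxl2 at 0.61 (0.15 to 1.07). The Loxl2 value rested on few UMIs, 89 in saline and 170 in NP. Its level was higher in NP in mesothelial-like cells (27 and 16 UMIs) and classical monocyte-like cells (1 and 29 UMIs, 19 of them in 1 cell). In fibroblast-like cells (31 UMIs in each library) it was lower. The fixed-mix ratio was not computed without the top cells. The ratios of Vcan (0.07, -0.02 to 0.16), Lox (0.06, -0.24 to 0.35), Tnc (-0.17, -1.33 to 0.99) and Timp1 (0.44, -0.07 to 0.94) had intervals that held 0. Conversely, the saline levels with the NP mix of classes differed from the saline levels as measured by 2.18 on the log2 scale for Postn, 0.86 for Fn1, 0.82 for Thbs1 and 0.71 for Spp1. With the class mix fixed, differences in class shares no longer enter, but sub-clusters within a class still do.

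**Figure D3:**
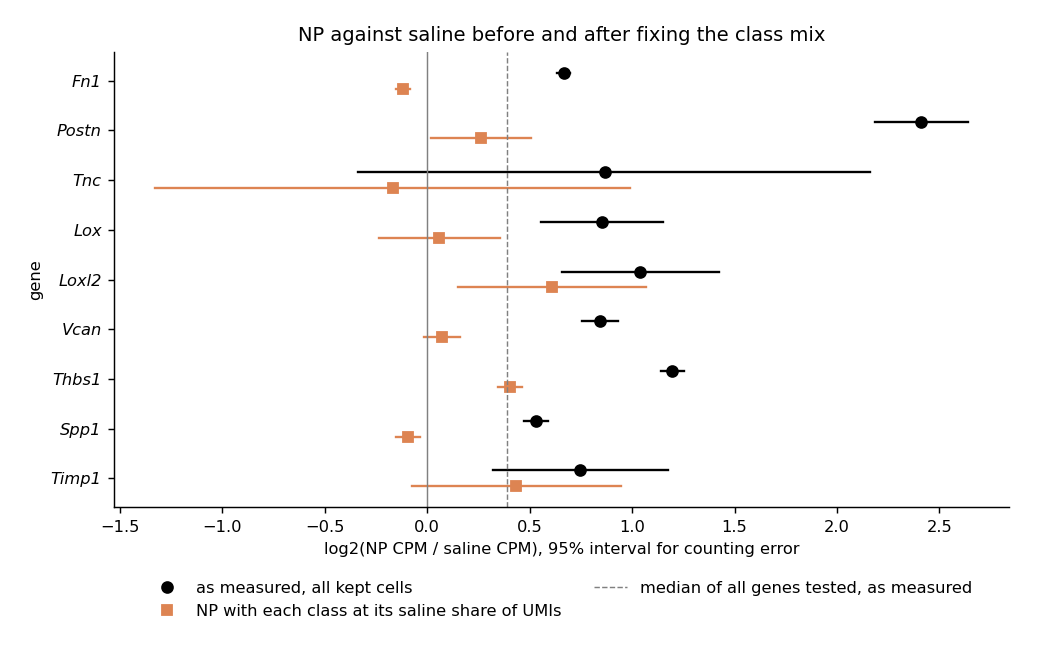
Log2 ratio of NP over saline CPM for each gene over all kept cells (circles) and with each NP class at its saline share of UMIs (squares), with 95% intervals for counting error and the median of all genes tested (dashed line, 0.39). All circles lie above 0, and with the mix fixed the squares of Fn1, Tnc and Spp1 lie below 0.

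Within classes, 47 pairs of a gene and a named class, over 8 of the genes, had at least 20 UMIs over both libraries. NP was past 2-fold higher in 11 of them and past 2-fold lower in 5, and 31 lay within 2-fold. The interval lay above 0 in 15, below 0 in 9 and held 0 in 23. Shares of all genes past 2-fold were computed for the main classes only, so these counts over all named classes have no background beside them. Most pairs past 2-fold lay outside the main classes, and in some of them 1 cell held most of the UMIs. By main class, 0 of 4 genes tested in neutrophil-like cells were past 2-fold, against 3.97% of all genes higher and 3.32% lower. In classical monocyte-like cells 1 of 5, Loxl2, was past 2-fold higher, against a background of 3.12% higher and 1.65% lower. In alveolar macrophage-like cells 0 of 2 were past 2-fold, against 1.2% in each direction. Of the 7 genes tested in fibroblast-like cells, Timp1 was past 2-fold higher and Vcan past 2-fold lower, against 3.92% and 3.86% of all genes. In general capillary endothelium-like cells 1 of 4, Postn, was past 2-fold higher, against 2.77% higher and 1.81% lower.

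Fn1 encodes fibronectin, a glycoprotein that binds integrins and collagen and is laid down early in a niche. The gene lies on the minus strand of GRCm38 at chr1:71585520-71653200. Most Fn1 transcripts lay in classical monocyte-like cells, with 9037 saline and 12933 NP UMIs. The level there was 828 CPM (811 to 845) in saline and 712 CPM (700 to 724) in NP, a log2 ratio of -0.22 (-0.26 to -0.18). A UMI was seen in 82.7% of saline and 73.1% of NP cells of this class, or 42.7% and 37.2% after thinning to 1000 UMIs. In B cell-like cells the thinned shares were 0.424% and 1.01%. The unthinned cells of the 2 classes had median depths of 15504 and 15938 UMIs in monocytes and of 4341.5 and 4451 in B cells. The signal was spread over many monocytes, since 113 saline and 174 NP cells held 50% of it. Non-classical monocyte-like cells, the patrolling relatives of classical monocytes, had only 11.3 and 4.75 CPM from 7 and 15 UMIs.

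The 7 sub-clusters of classical monocyte-like cells differed more among themselves in Fn1 than the libraries did. Different sub-clusters held most of the class in each library. In saline, 30.6% of the cells were in a sub-cluster led by Apoc1 and Saa3 and 26.5% in one led by the hemoglobin genes Hbb-bs and Hba-a1, whereas in NP 29.99% were in one led by the MHC class II genes H2-Eb1 and H2-Aa and 23.5% in one led by the interferon-induced genes Rsad2 and Ifit1. The H2-Eb1 sub-cluster, with 16.4% of the saline cells of the class, also had Treml4 and Ace among its leading genes. Both are on the marker list of non-classical monocytes, while the classical marker Ccr2 was high in it too. The class values of Fn1, Vcan and Thbs1 thus include cells with markers of both kinds, in unequal parts between the libraries. Fn1 was at 148 saline and 149 NP CPM in the H2-Eb1 sub-cluster. It was at 1177 and 1203 CPM in the sub-cluster led by S100a8 and S100a9. In the Rsad2 sub-cluster it was at 471 saline and 758 NP CPM, a log2 ratio of 0.69 (0.50 to 0.87), and in the Apoc1 sub-cluster at 823 and 906 CPM. A lower NP level was seen in the sub-cluster led by the mitotic genes Ccnb2 and Birc5, with 1197 and 808 CPM. When the NP sub-clusters were given their saline shares, an alternative chosen after seeing the data, the ratio of the class turned from -0.22 to 0.10 (0.05 to 0.15).

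**Figure D4:**
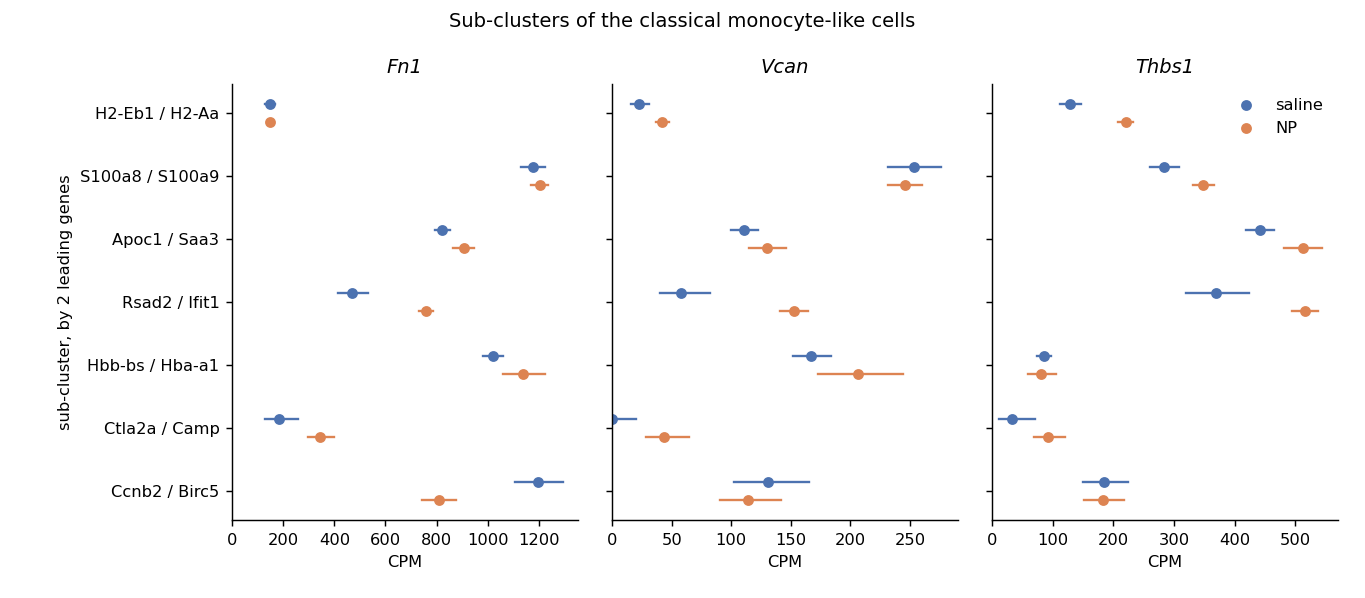
CPM of Fn1, Vcan and Thbs1 in the 7 sub-clusters of classical monocyte-like cells, named by leading genes, in saline (blue) and NP (orange), with 95% Poisson intervals for counting error. The H2-Eb1 sub-cluster has the same Fn1 level in both libraries, at 148 and 149 CPM, and the NP points of Thbs1 lie to the right of the saline points in 5 of the 7 sub-clusters.

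The highest level of Fn1 was in interstitial macrophage-like cells, a class defined by complement genes such as C1qa. The level was 5659 CPM (5316 to 6018) in 16 saline cells and 4293 CPM (4113 to 4478) in 36 NP cells, a log2 ratio of -0.40 (-0.51 to -0.29). A few cells carried it. One saline cell held 533 of 1017 UMIs and one NP cell 421 of 2146, and without these cells the ratio was 0.22. At least 50 Fn1 UMIs were found in 3 of 16 saline cells, with 93, 354 and 533 UMIs, and in 8 of 36 NP cells, with 73 to 421 UMIs and a median of 260.5. These cells also carried Prg4, the gene of the lubricating proteoglycan lubricin, at 5197 and 5553 CPM, and Alox15, a lipoxygenase, at 4357 and 3559 CPM. They lacked or nearly lacked 2 genes usual in lung interstitial macrophages, with Mrc1 at 0 and 24.5 CPM and Cx3cr1 at 0 in both libraries. Lyve1 was at 0 and 6.14 CPM in them, and H2-Aa at 0 and 24.5 CPM. In the other cells of the class Fn1 was at 342 and 407 CPM, Prg4 at 9.23 and 0 CPM, and the MHC class II gene H2-Aa at 5354 and 7334 CPM. The class thus joined cells with high and with low Prg4, and the high Fn1 level lay in the former. This division was made on Fn1 itself after its values were seen.

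**Figure D5:**
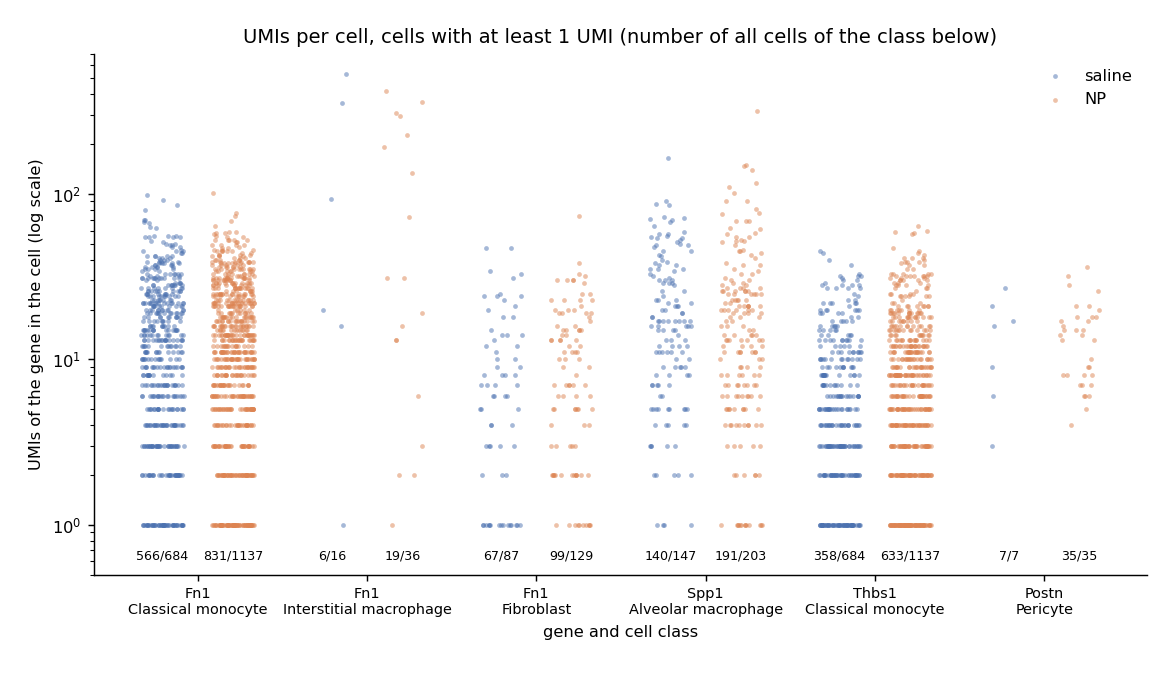
UMIs of a gene in each cell with at least 1 UMI, on a log scale, for 6 pairs of a gene and a class, in saline (blue) and NP (orange). The numbers under the points give cells with a UMI of all cells in the class, and the highest Fn1 counts, 533 and 421, are in single interstitial macrophage-like cells.

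Fibroblast-like cells had the next highest Fn1 level, at 1424 CPM (1319 to 1535) in saline and 1667 CPM (1572 to 1766) in NP, from 679 and 1148 UMIs. The log2 ratio was 0.23 (0.09 to 0.37), but with the saline shares of the sub-clusters it was 0.055 (-0.085 to 0.20), an interval that held 0. Among their 3 sub-clusters, the one led by Fam13a and Rgs2 had 1772 and 2090 CPM and the one led by Dcn, Pi16 and Lum, genes of adventitial fibroblasts, had 1063 and 675 CPM. Thus the NP level was higher in the first and lower in the second. Dendritic cell-like cells had 625 and 368 CPM (log2 ratio -0.77, -0.99 to -0.55), and 2 cells held 50% of the UMIs in each library. Alveolar macrophage-like cells had 115 and 96.5 CPM (-0.26, -0.48 to -0.03). In saline the intervals of the neighbors in this order, interstitial macrophage-like, fibroblast-like, classical monocyte-like and dendritic cell-like, did not overlap. These intervals do not cover the gathering of UMIs in few cells. Without the top cell of each class the saline levels were 3093, 1377, 821 and 406 CPM, in the same order. In NP the fibroblast-like interval overlapped that of mesothelial-like cells (1494 CPM, 1259 to 1760).

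The other Fn1 differences rested on few cells or few UMIs. In mesothelial-like cells Fn1 was at 352 and 1494 CPM, but 1 saline cell held 97 of 126 UMIs and 1 NP cell held 136 of 143. Without them the levels were 85.6 and 89.5 CPM and the ratio was 0.06 (-1.37 to 1.28). Nearly all NP cells of this class were also among those with the highest doublet scores. Lymphocyte classes had low levels, which were higher in NP in 2 classes. T cell-like cells had 15.4 and 57.4 CPM (log2 ratio 1.90, 1.45 to 2.36) and B cell-like cells 18.2 and 47.9 CPM (1.40, 0.93 to 1.88). NK cell-like cells had 19.1 CPM from 13 saline UMIs, all in 1 cell, and 8.67 CPM from 8 NP UMIs (-1.14, -2.62 to 0.24). In the T cell-like cells all 8 classical monocyte markers were detected in both libraries, and their summed level was 988 CPM in saline and 1961 CPM in NP, while in B cell-like cells it was 1581 and 1732 CPM. The part of these transcripts in the Fn1 values was not tested. Neutrophil-like cells had 1.37 and 2.54 CPM from 66 and 61 UMIs (0.89, 0.36 to 1.41), with saline neutrophils mostly in clusters led by Ccrl2, Csta3, Cxcr1 and Stfa3 and NP neutrophils mostly in clusters led by the interferon-induced genes Cxcl10 and Ifi27l2a. By a point estimate from barcodes with under 50 UMIs, RNA of broken cells could give up to 0.733 saline and 2.03 NP CPM of Fn1 in neutrophil-like cells. Most of both levels could thus be free RNA.

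Vcan encodes versican, a large chondroitin sulfate proteoglycan that swells the matrix and binds hyaluronan (chr13:89655312-89742509, minus strand, GRCm38). Of the 9 genes it had the largest share in a single class, the classical monocyte-like cells, which held 86.0% of its 1711 saline UMIs and 87.7% of its 2857 NP UMIs. The level there was 135 CPM (128 to 142) in saline and 138 CPM (133 to 144) in NP, a log2 ratio of 0.03 (-0.06 to 0.13). The intervals of the libraries overlapped in this class, unlike those over all cells. A UMI was seen in 48.8% and 47.1% of these cells, or in 8.77% and 10.6% after thinning. The 250 bases before the annotated Vcan start are shown because this gene was held so largely by 1 class. They lie at chr13:89742513-89742762 on the minus strand (RefSeq, GRCm38.p6), with capitals for a GC box (GGGCGG, here on both strands) and a CCAAT box (here ATTGG, its reverse complement).
Vcan: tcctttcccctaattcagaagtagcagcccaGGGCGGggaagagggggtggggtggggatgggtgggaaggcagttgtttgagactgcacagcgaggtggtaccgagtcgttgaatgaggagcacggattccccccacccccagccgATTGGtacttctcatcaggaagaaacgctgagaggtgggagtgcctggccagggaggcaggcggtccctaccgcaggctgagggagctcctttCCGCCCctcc
A GC box was found 219 and 10 bases before the start, and a CCAAT box 103 bases before it. On either strand, GGGCGG occurred in 32.7% and CCAAT in 33.8% of all 32851 promoter windows of the same length. A match is a description of the letters only.

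The sub-clusters of classical monocyte-like cells differed in Vcan as they did in Fn1. It was at 253 saline and 246 NP CPM in the S100a8 sub-cluster and at 167 and 206 CPM in the Hbb-bs sub-cluster. In the Rsad2 sub-cluster it was at 58.2 CPM from 32 saline UMIs and 153 CPM from 650 NP UMIs, so that NP over saline was 1.39 (0.88 to 1.95) on the log2 scale. The H2-Eb1 sub-cluster was also higher in NP, at 22.4 and 42.1 CPM (0.91, 0.40 to 1.46). With the saline shares of the sub-clusters the ratio of the class was 0.21 (0.09 to 0.33). Vcan in fibroblast-like cells was lower in NP, at 60.8 CPM from 29 UMIs and 27.6 CPM from 19 UMIs (-1.14, -2.06 to -0.26). All 29 saline and 16 of the 19 NP UMIs lay in the Dcn, Pi16 and Lum sub-cluster, at 164 and 126 CPM, and that sub-cluster made up 23.0% of saline and 14.0% of NP fibroblast-like cells. Non-classical monocyte-like cells had 1.62 and 1.27 CPM, and T cell-like cells had 17 and 51 UMIs.

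Thbs1 encodes thrombospondin-1, a matricellular protein that activates latent TGF-beta and restrains angiogenesis (chr2:118111876-118127133, plus strand). Of the 3 genes held mainly by classical monocyte-like cells, it was the one whose measured ratio there had an interval above 0, at 254 CPM (245 to 264) in saline and 345 CPM (337 to 354) in NP, from 2773 and 6272 UMIs. The log2 ratio was 0.44 (0.38 to 0.51), and it ranged from 0.43 to 0.49 over 12 other ways of processing. With the saline shares of the sub-clusters it was 0.28 (0.20 to 0.35), and the intervals of Fn1 (0.10, 0.05 to 0.15) and Vcan (0.21, 0.09 to 0.33) then lay above 0 as well. The UMIs were spread over 61 saline and 116 NP cells that held 50% of them, and 52.3% and 55.7% of cells had a UMI, or 18.1% and 22.7% after thinning, against 0.424% and 0.503% of B cell-like cells. The NP level was higher in the H2-Eb1 sub-cluster (128 and 220 CPM), the S100a8 sub-cluster (283 and 348), the Apoc1 sub-cluster (441 and 512), the Rsad2 sub-cluster (369 and 516) and the one led by Ctla2a and Camp (32.6 and 92.4). It was about level in the Hbb-bs sub-cluster, at 84.8 and 80.1 CPM, and in the Ccnb2 sub-cluster, at 185 and 182 CPM.

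Thbs1 is also an early-response gene and a platelet gene, so 2 lists were read beside it. In classical monocyte-like cells all 15 dissociation stress genes were detected, and they summed to 13112 CPM in saline and 14147 CPM in NP, with 11 of 15 higher in NP (log2 ratio of the sum 0.11). Their part in the Thbs1 difference was not tested. Platelet markers summed to 5.77 and 10.1 CPM there, with 8 of 9 genes detected in saline and 7 in NP, and without cells that held 2 or more platelet UMIs the Thbs1 ratio was again 0.44.

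By level, the highest Thbs1 was in smooth muscle or myofibroblast-like cells, with 1035 CPM (817 to 1294) in saline and 1029 CPM (907 to 1163) in NP and a log2 ratio of -0.01 (-0.38 to 0.38). Their sub-cluster led by Dcn and Hhip held 76 saline and 207 NP UMIs, at 1249 and 1182 CPM. The other, led by Igkc and Actc1, had 3 saline and 10 NP cells with 1 and 49 UMIs, or 73.8 and 665 CPM. Fibroblast-like cells followed, at 535 CPM (471 to 605) and 405 CPM (359 to 456), with a lower NP level (-0.40, -0.65 to -0.15). That difference was seen in the Fam13a and Rgs2 sub-cluster, with 894 and 556 CPM (-0.68, -0.95 to -0.42). The sub-cluster led by Hba-a2 and Gpihbp1 went the other way, with 24.1 CPM from 1 saline UMI and 194 CPM from 22 NP UMIs, and its ratio with the saline count set to 3 was 1.42 (0.38 to 8.38). In alveolar epithelium type 2-like cells Thbs1 was at 56.1 CPM from 23 UMIs in saline and at 8.12 CPM from 7 UMIs in NP. Single cells made up the signal of 2 lymphocyte classes. In T cell-like cells 55 of 72 saline and 51 of 81 NP UMIs were in 1 cell, and in NK cell-like cells all 19 saline and 21 NP UMIs were in 1 cell each. An unnamed cluster that carried markers of neutrophils and of classical monocytes had 136 and 282 CPM (1.06, 0.83 to 1.28).

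Spp1 encodes osteopontin, a phosphorylated matricellular protein that binds integrins and CD44 and is made by macrophages in injured and tumor-bearing tissue (chr5:104435118-104441050, plus strand). Alveolar macrophage-like cells held 81.1% of 4182 saline UMIs and 84.0% of 5619 NP UMIs. The level was 1294 CPM (1250 to 1338) in saline and 1186 CPM (1153 to 1221) in NP, a log2 ratio of -0.12 (-0.19 to -0.06). Nearly every alveolar macrophage-like cell had a UMI, 140 of 147 in saline and 191 of 203 in NP, or 62.3% and 54.7% after thinning, against 0.212% and 0.168% of B cell-like cells. Cells varied widely, from none to 164 UMIs in saline and to 319 in NP, and 27 and 28 cells held 50% of the UMIs. The 10 cells with most Spp1 were alveolar macrophage-like in both libraries. The 250 bases before the annotated Spp1 start are shown because this gene was held by 1 macrophage class, and PU.1, whose site is marked, is a factor that macrophages use widely. They lie at chr5:104434861-104435110 on the plus strand (RefSeq, GRCm38.p6), with capitals for TATAAA, for the PU.1-type site GAGGAAGT and for ATTGG, the reverse complement of a CCAAT box.
Spp1: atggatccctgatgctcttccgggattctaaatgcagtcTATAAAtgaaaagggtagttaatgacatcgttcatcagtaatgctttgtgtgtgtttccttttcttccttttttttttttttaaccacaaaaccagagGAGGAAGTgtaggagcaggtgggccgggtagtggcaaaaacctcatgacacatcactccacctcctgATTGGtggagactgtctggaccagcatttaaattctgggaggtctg
These matches lay 211, 113 and 46 bases before the start. TATAAA occurred in 12.4% and GAGGAAGT in 2.44% of all windows, on either strand. The TATAAA match is far from the usual position of a TATA box, and no binding was measured here.

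Outside this class, the highest Spp1 levels were in unnamed clusters of few cells. One cluster of mononuclear phagocytes with 12 saline and 10 NP cells, which carried markers of alveolar macrophages and of neutrophils, had 982 and 853 CPM. A second, led by Ccl5 and Bcl2a1d, had 485 CPM from 22 UMIs in 12 saline cells and 24.2 CPM from 14 UMIs in 51 NP cells (-4.32, -5.40 to -3.29). Among named classes, interstitial macrophage-like cells had 106 and 102 CPM. Classical monocyte-like cells had 20.8 and 18.3 CPM (-0.18, -0.43 to 0.07). Of their 333 NP UMIs, 63 were in 1 cell, and without the top cell of each library the ratio was -0.38 (-0.65 to -0.11). In the H2-Eb1 sub-cluster of this class Spp1 was at 36.0 CPM from 58 saline UMIs and at 4.91 CPM from 26 NP UMIs (-2.87, -3.60 to -2.18). The Apoc1 sub-cluster went the other way, with 12.1 and 32.8 CPM (1.43, 0.85 to 2.03). So did the one led by Ctla2a and Camp, with 1 saline and 64 NP UMIs. Neutrophil-like cells had 4.47 and 6.82 CPM from 215 and 164 UMIs (0.61, 0.31 to 0.91), and with the saline shares of their 9 clusters the ratio was 0.07 (-0.29 to 0.43).

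Postn encodes periostin, a matricellular protein that promotes collagen cross-linking and presents growth signals to incoming cells (chr3:54361109-54391037, plus strand). Every pericyte-like cell had a Postn UMI, 7 of 7 in saline and 35 of 35 in NP. Pericytes wrap capillaries, and this class held 99 of 194 saline UMIs (51.0%) and 495 of 959 NP UMIs (51.6%). The level was 3579 CPM (2909 to 4357) in saline and 3214 CPM (2937 to 3510) in NP, with a log2 ratio of -0.16 (-0.47 to 0.17). Postn was higher over all cells in the library with more pericyte-like cells, and the intervals of its level within them overlapped, with 7 saline cells behind the wider one. The 250 bases before the annotated Postn start are shown because this gene marked its producer in every cell of the class. They lie at chr3:54360857-54361106 on the plus strand (RefSeq, GRCm38.p6), with capitals for TATAAA.
Postn: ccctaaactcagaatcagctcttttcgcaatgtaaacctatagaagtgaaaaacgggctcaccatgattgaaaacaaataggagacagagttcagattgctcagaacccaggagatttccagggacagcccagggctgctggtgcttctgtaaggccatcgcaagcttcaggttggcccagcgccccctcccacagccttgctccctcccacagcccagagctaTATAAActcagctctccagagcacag
The match lay 26 bases before the start, near the usual position of a TATA box.

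Most of the remaining Postn lay in unnamed clusters. One that carried both pericyte and capillary endothelial genes had 12 UMIs in 3 saline cells and 239 UMIs in 20 NP cells, or 459 and 946 CPM, and held 24.9% of NP Postn. A second unnamed cluster, near the endothelium, held 35 saline UMIs, 21 of them in 1 cell, and 13 NP UMIs. In fibroblast-like cells Postn was at 31.5 and 62.4 CPM (0.99, 0.11 to 1.94), but 28 of 43 NP UMIs were in 1 cell, and without the top cell of each library the ratio was 0.35. Smooth muscle or myofibroblast-like cells had 6 and 16 UMIs. General capillary endothelium-like cells had 3 and 29 UMIs, or 3.48 and 8.98 CPM (1.37, -0.32 to 3.73).

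Tnc encodes tenascin C, a hexameric glycoprotein that is scarce in resting lung and appears in wounds and tumors (chr4:63959785-64047015, minus strand). It was barely detected. Of 10 saline UMIs, 3 were in fibroblast-like and 4 in smooth muscle or myofibroblast-like cells, and of 17 NP UMIs, 9 and 4 were. The 4 stromal classes (fibroblast, smooth muscle or myofibroblast, pericyte and mesothelial-like) together held 70.0% (34.8% to 93.3%) and 76.5% (50.1% to 93.2%). A difference between the libraries in Tnc was not detectable at this depth.

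Lox encodes lysyl oxidase, the copper enzyme that starts covalent cross-links in collagen and elastin. Fibroblast-like cells held 75.7% of 152 saline UMIs and 76.1% of 255 NP UMIs. The level was 241 CPM (199 to 289.5) in saline and 282 CPM (243 to 324) in NP, a log2 ratio of 0.22 (-0.12 to 0.57). Lox was found in 44.8% and 53.5% of fibroblast-like cells, or in 14.8% and 17.2% after thinning, and in no B cell-like cell of 472 and 597. Within the class it was higher in the Fam13a and Rgs2 sub-cluster, at 337 and 364 CPM, than in the Dcn, Pi16 and Lum sub-cluster, at 113 and 102 CPM, and the intervals of these sub-clusters did not overlap in either library. Large-vessel endothelium-like cells had 3 and 13 UMIs.

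Loxl2, a relative of lysyl oxidase that modifies collagen IV and fibrillar collagen (chr14:69609068-69695834, plus strand), was spread more widely. The 4 stromal classes held 69.7% of 89 saline UMIs but 38.8% of 170 NP UMIs, in which endothelial classes held 23.5%. Its highest levels were in mesothelial-like cells, at 75.5 CPM from 27 UMIs and 167 CPM from 16 UMIs (1.15, 0.16 to 2.09). In saline, pericyte-like cells were close, at 72.3 CPM from 2 UMIs. Removal of the highest doublet scores took nearly all NP mesothelial-like cells. Without the top cell of each library the ratio in mesothelial-like cells was 0.87 (-0.31 to 1.95). In fibroblast-like cells it was at 65.0 and 45.0 CPM, from 31 UMIs in each library (-0.53, -1.30 to 0.24), and unlike Lox it was higher in the Dcn, Pi16 and Lum sub-cluster (141 and 110 CPM) than in the Fam13a and Rgs2 sub-cluster (19.3 and 38.0 CPM). In classical monocyte-like cells 1 UMI was found in saline and 29 in NP, and the ratio with the saline count set to 3 was 2.54 (1.53 to 9.48). Of the NP UMIs, 19 were in 1 cell. Without the top cell of each library 0 saline and 10 NP UMIs were left, and the ratio with the saline count set to 3 was 1.00 (lower limit 0.43). General capillary endothelium-like cells had 6 and 28 UMIs, or 6.96 and 8.67 CPM.

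Timp1 encodes a secreted inhibitor of matrix metalloproteinases (chrX:20870166-20874735, plus strand). Mesothelial-like cells had the highest level, at 109 CPM (77.5 to 149) in saline and 125 CPM (64.8 to 219) in NP, with a ratio of 0.20 (-0.87 to 1.16). Their share of Timp1 UMIs was 50.6% in saline and 10.0% in NP, with 33 saline and 13 NP cells in the class. Removal of the highest doublet scores took nearly all of these NP cells. Fibroblast-like cells were higher in NP, at 33.6 CPM from 16 UMIs and 75.5 CPM from 52 UMIs (1.17, 0.34 to 2.08). In their Dcn, Pi16 and Lum sub-cluster 28 of the 52 NP UMIs were found, at 220 CPM (146 to 318), against 45.2 CPM (19.5 to 89.1) from 8 saline UMIs. Endothelial classes held 23.3% of NP Timp1.

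The other matrix genes on lists written for this comparison, 96 in all, give the setting for the 9. The lists were written with earlier results of these data known. Over all cells 91 had at least 20 UMIs, of which 32 were past 2-fold higher and 2 lower in NP, against 14.8% and 1.85% of all genes tested. Their median log2 ratio was 0.65, against 0.39 for all genes tested. No ratio with the class mix fixed was computed for these genes, so differences in class shares enter these counts. By role, 8 of 28 structural genes were past 2-fold higher, 4 of 14 matricellular genes and proteoglycans, 5 of 9 cross-linking and collagen-modifying enzymes, 7 of 17 proteases, 2 of 5 protease inhibitors and 6 of 18 receptors for the 9 proteins. The 2 past 2-fold lower were Dcn, the collagen-binding proteoglycan decorin, at -1.17, and the aggrecan-cleaving protease Adamts5 at -1.05. Among those with at least 200 UMIs, the highest were the membrane protease Mmp14 (2.04), the peroxidase Pxdn that cross-links collagen IV (1.97), Itga9 (1.81), Cd36, a thrombospondin receptor (1.74), and Col4a2, a basement membrane chain (1.73). With fewer UMIs, 3 more genes had ratios above that of Pxdn, namely Itgb6 (2.59, from 5 and 28 UMIs), Timp4 (0.129 and 0.677 CPM, from 10 and 49 UMIs) and Col8a1 (2.03, from 21 and 80 UMIs). After Dcn and Adamts5, the lowest with at least 200 UMIs were the neutrophil collagenase Mmp8 (-0.86), Mmp25 (-0.83) and Mmp9 (-0.83).

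Within classes the list medians lay above those of all genes in some classes and below them in others. In fibroblast-like cells 4 of 72 list genes were past 2-fold higher and 6 lower, against 3.92% and 3.86% of all genes, with a median of -0.24 against 0.01 for all genes. Structural genes there had a median of -0.42, with 0 of 25 past 2-fold higher and 1 lower. Lum was at 445 saline and 100 NP CPM (-2.15), Dcn at 5925 and 2444 CPM (-1.28), and Nid1, Fbn1 and Col3a1 had ratios of -1.01, -0.93 and -0.82. Beside this, the sub-cluster led by Dcn, Pi16 and Lum made up 23.0% of saline and 14.0% of NP fibroblast-like cells. On the higher side were Mmp3 (0.70), Col4a2 (0.60), Tgm2 (0.55), Itga8 (0.48) and Itgb1 (0.33). In classical monocyte-like cells 10 of 44 were past 2-fold higher and 4 lower, against 3.12% and 1.65% of all genes, with a median of 0.11 against -0.05. With at least 100 UMIs, 4 were past 2-fold higher and 1 lower, a threshold at which the share of all genes was not computed. The transglutaminase Tgm2, which cross-links fibronectin, was at 14.1 and 34.2 CPM (1.28), and the TGF-beta-induced matrix protein Tgfbi at 883 and 622 CPM (-0.51), with Mmp19 at -1.07, Timp2 at -0.59 and the integrins Itga5 and Itgb5 at -0.43 each. In neutrophil-like cells 2 of 43 were higher and 4 lower, against 3.97% and 3.32% of all genes (median -0.02 against -0.13), with Mmp19 at -2.28, the scavenger receptor Lrp1 at -1.23 and Tgm2 at 0.93. In alveolar macrophage-like cells 1 of 29 was higher and 0 lower, against 1.2% in each direction, with Mmp12, the macrophage elastase, at -0.51 and Tlr2 at 0.42. In general capillary endothelium-like cells 1 of 40 was higher and 0 lower, against 2.77% and 1.81%, with Itga5 at -0.53, Adamts1 at -0.51 and the syndecan Sdc4 at 1.08.

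Genes whose levels followed each of the 9 most closely over the 21 named classes in both libraries (42 points, Pearson's r of log2(CPM + 1)) are given as a description. The points share 2 libraries and differ in depth. Nearest to Postn were S1pr3 (0.91), Gucy1a1 (0.91) and Pdgfrb (0.90), of which Gucy1a1 and Pdgfrb were pericyte markers used in naming. Nearest to Fn1 were Abca9 (0.86), Myof (0.79) and Ext1 (0.75). Vcan and Thbs1 were on each other's lists (0.76), with Rspo1 and Rhou beside Vcan and Pdlim4 and Apoe beside Thbs1. Lox followed Meox2 (0.88), Mmp2 (0.86) and Adamtsl2 (0.85), and Loxl2 followed Fbn1 (0.90), Ndn (0.89) and Serping1 (0.88). Timp1 followed Galnt15 (0.93), Fndc1 (0.92) and Cygb (0.92), Tnc followed Igsf10 (0.89), Fgf7 (0.81) and Itga8 (0.79), and Spp1 followed F7 (0.77), AU022793 (0.75) and Bend6 (0.75).

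RNA of broken cells that enters droplets was estimated from barcodes with under 50 UMIs. The estimated limit was 0.208% of saline and 0.593% of NP UMIs in classical monocyte-like cells, which allows 0.251 and 1.15 CPM of Fn1 there. Each limit is a point estimate without a counting interval, set by the gene with the lowest value, here Sftpb in saline and Sftpc in NP. In alveolar macrophage-like cells the limits were 0.240% and 0.120%. Epithelial carcinoma markers such as Epcam and Krt8, which 4T1 cells are known to express, summed to 66.3 CPM in saline and 68.8 CPM in NP over all cells, with 8 and 7 of 9 genes detected. No cluster was named as carcinoma, so matrix transcripts of tumor cells were not measured here.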

How the data were processed

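The authors processed droplet single-cell libraries with bcl2fastq and Cell Ranger 6.0 against mm10, per the submitters' processing notes, while the matrix headers name another Cell Ranger version. The deposited matrices hold raw UMI counts per gene and barcode, before cells were selected. The cell limits follow the study's methods. From these counts, both libraries were log-normalized, reduced and clustered together (Leiden resolution 1) without the 9 genes and the other matrix genes among the variable genes. Clusters were named from marker lists, stromal, endothelial, epithelial and mononuclear phagocyte clusters after a second clustering. The authors' own cell labels were not used, so names may differ from theirs. Doublets were kept.

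Levels are pooled CPM with exact Poisson intervals, shares carry exact Clopper-Pearson intervals, and log2 ratios carry exact conditional binomial intervals (a count under 3 was set to 3 in the ratio only). The interval with the class mix fixed is a delta-method one. Shares of cells were also computed after thinning each cell to 1000 UMIs, which left out shallower cells (17 of 1137 NP and 0 saline classical monocyte-like cells). Intervals cover counting error only. A gene needed 20 UMIs over both libraries to be compared, and past 2-fold is a size, not a test.

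The members and gene lists were chosen with earlier results of these data known. Genes named are the 9 members, the 5 highest and 5 lowest listed matrix genes with at least 200 UMIs per main class, from which the text takes a part, the 3 genes nearest to each member, and marker genes that stand beside a member. Gene positions are from GENCODE on GRCm38, and promoter windows of 250 bases from RefSeq on GRCm38.p6 matched 5 of the 9 members, of which 3 are printed. Fn1, Lox, Loxl2 and Thbs1 had no window.

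Alternatives were limits of 200 or 800 genes, a mitochondrial limit of 5%, removal of the highest 7% of Scrublet doublet scores, of the top cell of each gene or of cells with 2 or more platelet UMIs, classes by the best marker score of each cell, Leiden resolution 2, ratios less the median, equal weight per cell, free RNA subtraction, 0.5 added to counts, thinning to 500 or 2000 UMIs, and other thresholds for the matrix lists. Marker lists with no class of their own summed over all saline and NP cells to 178 and 242 CPM for plasma cells, 220 and 355 for alveolar epithelium type 1, 36.2 and 50.9 for platelets, 1075 and 1133 for erythroid cells, and 77.5 and 112 for proliferating cells. Calculations were tested on simulated counts drawn independently for each class. Those counts lack the gathering of UMIs in single cells seen here, so the intervals were not tested for it. Tools were Python 3.11.15, numpy 2.4.6, pandas 2.3.3, scipy 1.17.1, scikit-learn 1.9.0, scanpy 1.11.5 and matplotlib 3.10.9.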

Additional observations from a re-analysis of the deposited data

Results flagged for a closer look

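Fn1 had log2 ratios of NP over saline whose counting intervals lay on opposite sides of 0 in different classes. The ratio was 1.40 in B cell-like, 0.23 in fibroblast-like, 2.08 in mesothelial-like and 1.90 in T cell-like cells. It was -0.26 in alveolar macrophage-like, -0.22 in classical monocyte-like, -0.77 in dendritic cell-like and -0.40 in interstitial macrophage-like cells. With 1 library per treatment the difference between classes was not tested. The mesothelial-like value was 0.06 without the top cell of each library, and the interstitial macrophage-like value was 0.22 without it. Most Fn1 UMIs of the interstitial macrophage-like class lay in 3 saline and 8 NP cells with high Prg4. The alveolar macrophage-like value was -0.24 (-0.48 to 0.0015) without the top cell of each library. The B cell-like and T cell-like values were 2.09 and 1.93 without it, but few cells held most of the UMIs there. In B cell-like cells 1 cell held 32 of 51 saline UMIs and 1 cell 62 of 157 NP UMIs. In T cell-like cells 1 cell held 20 of 55 saline UMIs and 1 cell 63 of 181 NP UMIs. With each NP sub-cluster at its saline share, the classical monocyte-like value was 0.10 (0.05 to 0.15) and the fibroblast-like value 0.055 (-0.085 to 0.20).

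Thbs1 was higher in NP in classical monocyte-like cells (0.44) and lower in fibroblast-like cells (-0.40), and Spp1 was higher in NP in neutrophil-like cells (0.61) and lower in alveolar macrophage-like cells (-0.12). These differences between classes were not tested either. With the saline shares of their clusters the Spp1 ratio in neutrophil-like cells was 0.07 (-0.29 to 0.43), and the Thbs1 ratios were 0.28 in classical monocyte-like and -0.65 in fibroblast-like cells.

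Signal was also present in barcodes that no comparison used. In barcodes with under 50 UMIs, taken as free RNA, Fn1 was at 121 saline and 193 NP CPM (log2 ratio 0.68), Thbs1 at 41.1 and 93.9 CPM (1.19) and Spp1 at 56.3 and 66.9 CPM (0.25). In the 119 saline and 236 NP barcodes with over 5000 genes that were left out, Fn1 was at 322 and 433 CPM (0.43), Postn at 16.0 and 64.8 CPM (2.02), Vcan at 51.3 and 65.4 CPM (0.35), Thbs1 at 67.8 and 91.3 CPM (0.43) and Spp1 at 306 and 383 CPM (0.32). These 8 ratios were listed because their intervals lay above 0, with at least 200 UMIs over both libraries. Their direction, that of the same genes over all kept cells, was thus fixed by the choice. In the barcodes removed for mitochondrial UMIs the direction was the opposite for Vcan, at 33.0 and 10.2 CPM (-1.70, -2.61 to -0.83), and Spp1, at 149 and 61.1 CPM (-1.29, -1.66 to -0.93). Fn1 was at 213 and 191 CPM there (-0.15, -0.40 to 0.10), Thbs1 at 42.7 and 67.3 CPM (0.66, 0.15 to 1.19) and Postn at 14.6 and 49.8 CPM (1.77, 0.97 to 2.67).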

How the results depend on the processing

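Every ratio over all cells stayed above 0 in all 9 alternatives, and 15 of 81 values left the counting interval. A mitochondrial limit of 5% gave 0.73 for Fn1, 1.28 for Thbs1 and 0.45 for Spp1, and removal of cells with platelet UMIs 0.63 for Fn1 and 0.47 for Spp1. Less the median of genes with at least 200 UMIs, the ratios were 0.29 for Fn1, 2.04 for Postn, 0.48 for Lox, 0.47 for Vcan, 0.82 for Thbs1 and 0.16 for Spp1. Doublet removal gave 2.02 for Postn and 0.65 for Loxl2, and equal weight per cell 1.05 for Thbs1 and 0.32 for Spp1. With the class mix fixed, classes by the best marker score of each cell gave -0.16 for Fn1 and -0.030 for Spp1. Within classes 13 of 166 values moved. For Fn1 in interstitial macrophage-like cells (main -0.40) the ratio turned to 0.22 without the top cell and to 0.11 with equal weight per cell. It was -0.97 without cells holding platelet UMIs, which in this class were nearly all of Pf4. Pf4 was at 126 saline and 2129 NP CPM in the Fn1-high cells and at 1809 and 748 CPM in the others. The 8 other platelet markers summed to 14.0 and 18.5 CPM in these 2 groups in saline and to 0 in both in NP. Doublet removal gave 0.43 for Fn1 in fibroblast-like cells, -1.34 for Loxl2 in fibroblast-like cells and 0.40 for Thbs1 in smooth muscle or myofibroblast-like cells. Classes by the best marker score of each cell gave -0.50 for Postn in pericyte-like, 0.39 for Thbs1 in smooth muscle or myofibroblast-like and -0.67 for Thbs1 in fibroblast-like cells. Other values were 0.20 for Postn in pericyte-like cells at 200 genes, -0.17 for Fn1 in classical monocyte-like cells less the median, and -0.38 and -0.22 for Spp1 in alveolar macrophage-like cells at the 5% limit and without platelet UMIs. The saline sub-cluster mix, chosen after seeing the data, turned Fn1 in classical monocyte-like cells to 0.10 and gave 0.21 for Vcan and 0.28 for Thbs1 there and 0.055 for Fn1 in fibroblast-like cells. The causes were not tested.

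Of the shares by class 52 of 224 moved. The largest moves were Postn in NP pericyte-like cells, from 51.6% to 71.7% with doublets removed, and Spp1 in saline alveolar macrophage-like cells, from 81.1% to 66.6% at the 5% limit. The NP share of Fn1 in interstitial macrophage-like cells was 3.06% without cells holding platelet UMIs, which in this class were nearly all of Pf4. Past 1.5-fold in place of 2-fold, 7 other matrix genes were lower over all cells in place of 2. In fibroblast-like cells 9 were higher and 16 lower in place of 4 and 6, in neutrophil-like cells 10 higher and 7 lower in place of 2 and 4, and in classical monocyte-like cells 16 were higher in place of 10. With at least 100 UMIs, 1, 1 and 4 were higher in those 3 classes, and 1 was lower in classical monocyte-like cells in place of 4. Shares of all genes were not computed at these other thresholds. These counts thus have no background beside them and show only how far the numbers depend on the threshold. Doublet removal left 1 NP mesothelial-like cell, so no ratio of Loxl2 or Timp1 could be given there.

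No paired analysis was possible because each treatment has 1 library. Depth limits Tnc, and few cells limit pericyte-like, mesothelial-like and interstitial macrophage-like values. Differences between mice, pools and library preparations cannot be told apart from treatment.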
